A study of Mus musculus with 6 samples.

Results

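Expression of 10 axon guidance and sorting genes was examined in the mouse vomeronasal organ, out of 35450 genes with estimated reads. The 10 were taken by name from a list of Robo, Slit, neuropilin, semaphorin and Kirrel genes: Robo1, Robo2, Slit1, Slit2, Nrp1, Nrp2, Sema3a, Sema3f, Kirrel2 and Kirrel3. All 10 had enough reads to be tested. The comparison was between 3 wild-type mice (Cnpy1+/+) and 3 Cnpy1 knockout littermates (Cnpy1-/-), all at postnatal day 60, with 2 males and 1 female per genotype. Both organs of a mouse, freed of the outer bone, gave 1 poly(A) RNA library, and each library counted as 1 replicate. How the knockout allele was made is not given in the sources used here. Cnpy1 encodes a Canopy protein of the endoplasmic reticulum, and the study asked what its loss does to gene expression in this organ. Whether guidance genes are among those affected is the question taken up here.

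The vomeronasal organ detects pheromones and sends its axons to the accessory olfactory bulb. Apical sensory neurons, which express Gnai2 and V1R receptors, project to the anterior part of the bulb, and basal neurons, which express Gnao1 and V2R receptors, project to the posterior part. Slit proteins are secreted repellents that act through Robo receptors, and this pair is known to keep basal axons out of the anterior bulb. Class 3 semaphorins are secreted repellents that act through neuropilins joined to plexins, and Sema3f with Nrp2 is known to keep apical axons out of the posterior bulb. Kirrel proteins are adhesion molecules of the immunoglobulin superfamily that bring like axons together into glomeruli. The libraries hold RNA of the organ, and the bulb, where many of the cues met by these axons are made, was not sampled.

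The 6 libraries held 60969508 to 71670766 estimated reads. Cnpy1 lay between 280 and 325 CPM in wild type and between 67.2 and 77.6 CPM in the knockout, in the order that the genotype labels give. CPM are reads scaled to a common library size with TMM factors, and serve to compare 1 gene between mice. TPM are reads relative to transcript length and to all transcripts, and serve to compare genes with each other. Of the marker genes, the apical marker Gnai2, the basal marker Gnao1 and the mature neuron genes Omp and Trpc2 were present in every library. Genes listed here as markers of main olfactory neurons (Cnga2, Gnal, Adcy3 and Ano2) were present too, with summed levels of 81.2 to 101 TPM in wild type and 66.3 to 86.4 TPM in the knockout. Whether vomeronasal cells express some of them was not tested, so the sum is not a measure of main olfactory tissue. In bulk tissue, fewer cells of a type and less RNA per cell cannot be told apart.

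By edgeR's quasi-likelihood test, 0 of the 10 genes were called at an adjusted p under 0.05, and 0.761% of the 16679 genes tested were called (0.683% lower and 0.0779% higher in the knockout). For the sex by genotype interaction edgeR called 0 of the 10 and 0.024% of all genes, and 2 of the 10 and 4.5% of all genes had an unadjusted p under 0.05. At an unadjusted p under 0.05 there were 3 of the 10 (Kirrel2, Robo2 and Sema3a, each with the lower values in the knockout), and 10.5% of all genes (5.99% lower and 4.55% higher). DESeq2's Wald test called 1 of the 10, Kirrel2, and 2.46% of all genes tested. In TMM-scaled CPM the groups did not overlap for 4 of the 10: all knockouts were below all wild types for Kirrel2, Robo2 and Sema3a, and above them for Sema3f. Among all genes tested the groups did not overlap for 16.2%, with 8.95% lower and 7.22% higher. The median log2 fold change was -0.01 over the 10 genes and 0.01 over all genes tested. Of the 10 values, 5 were below 0 and 5 above. Kirrel2 differed most of the 10, at 65.7% of the wild-type mean, and the other 9 lay at 86.2% to 109%.

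Promoter sequences are shown for Kirrel2 and Robo2, as the gene with the greatest difference among the 10 and as the receptor named for basal axons. Each is the 250 bases before the RefSeq transcription start (GRCm38.p6), read 5′ to 3′ on the gene's strand. That of Kirrel2 lies at chr7:30457516-30457765 on the minus strand, and that of Robo2, which has 3 RefSeq starts, at chr16:74411826-74412075 on the minus strand. Capitals mark a match to the motif CCCNNGGG.
Kirrel2: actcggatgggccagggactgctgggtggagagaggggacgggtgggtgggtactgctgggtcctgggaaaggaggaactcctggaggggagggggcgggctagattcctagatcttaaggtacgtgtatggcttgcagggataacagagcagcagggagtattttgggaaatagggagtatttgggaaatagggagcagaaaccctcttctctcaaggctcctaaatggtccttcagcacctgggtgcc
Robo2: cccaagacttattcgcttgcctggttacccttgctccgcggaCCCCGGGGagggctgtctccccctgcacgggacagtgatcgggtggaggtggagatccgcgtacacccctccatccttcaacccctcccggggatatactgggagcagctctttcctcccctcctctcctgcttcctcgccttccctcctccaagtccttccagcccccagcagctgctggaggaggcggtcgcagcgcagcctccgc
The Robo2 match begins at position -208, counting the base before the start as -1. Promoters of 7 of the 10 genes, 9 sequences in all, were found in the RefSeq table and searched on both strands for 3 motifs. These were GCCNNNGGC, bound by AP-2 factors such as the basal identity factor Tfap2e, CCCNNGGG, bound by EBF factors of olfactory neurons, and TAATTA, bound by homeodomain factors. They occur in 13.7%, 11.8% and 4.84% of all 32851 promoters of this length. Among the 9 sequences, the Robo2 promoter shown held the 1 match to CCCNNGGG, and the promoters of the other 2 Robo2 starts held 0 matches to the 3 motifs. Slit2 held 1 match to GCCNNNGGC at position -54, and there was 0 for TAATTA. The 2 matches did not overlap another motif. A match describes letters and not a binding site.

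Levels spanned about an order of magnitude between genes. In wild type, Kirrel2 stood at 148 ± 11.7 TPM (SD, n = 3), well above Nrp2 at 45.2 ± 3.62 TPM and Kirrel3 at 42.5 ± 1.801 TPM, whose ranges overlapped. Robo2 followed at 34.8 ± 1.55 TPM and Sema3f at 26.0 ± 1.74 TPM, each separate from its neighbours in the order. Sema3a (16.4 ± 1.02 TPM), Robo1 (16.2 ± 1.07 TPM) and Nrp1 (14.3 ± 1.53 TPM) followed, with Sema3a overlapping Robo1 and Robo1 overlapping Nrp1. Slit2 (11.1 ± 0.816 TPM) and Slit1 (9.02 ± 0.482 TPM) were the lowest and did not overlap each other. In the knockout the first 5 genes kept their order, with Robo2 (29.0 ± 1.74 TPM) now overlapping Sema3f (26.6 ± 3.32 TPM), and the sixth to the eighth place were taken by Nrp1, Robo1 and Sema3a, whose ranges overlapped. Kirrel2, Nrp2, Kirrel3 and Robo2 thus had higher wild-type levels than any of the 4 secreted ligands.

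**Figure D1:**
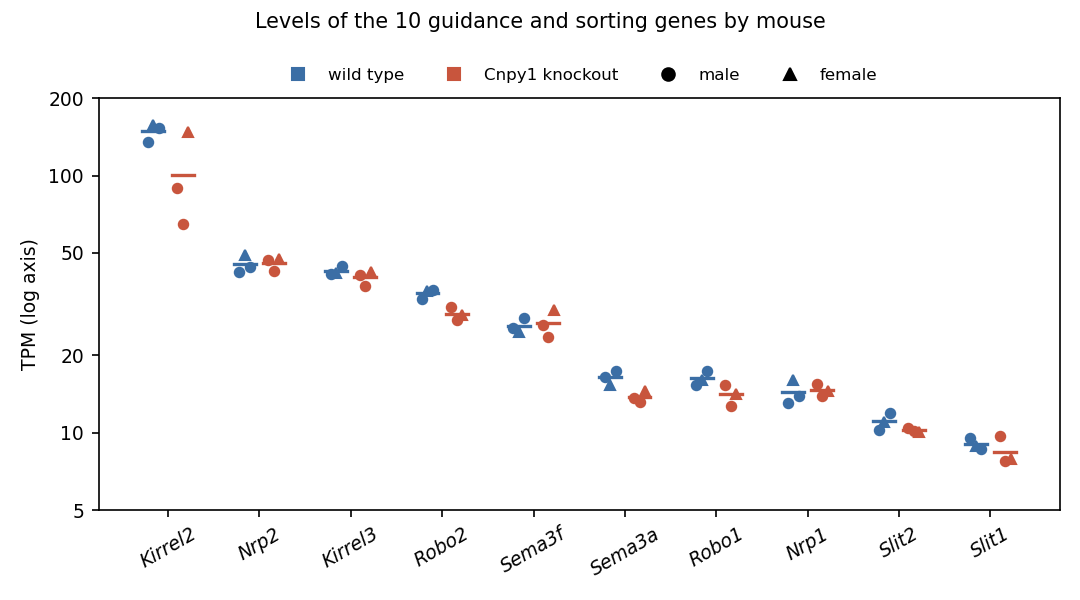
TPM of the 10 genes in each mouse on a log axis, ordered by the wild-type mean; blue is wild type, red is knockout, circles are males, triangles are females and bars are means. Kirrel2 lies highest, at 135 to 157 TPM in wild type, and Slit1 lowest, at 8.64 to 9.56 TPM.

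Robo1 and Robo2 encode the receptors for Slit proteins. Robo2 (chromosome 16, 73891839 to 74411825, minus strand, GRCm38) had 96.7, 94.4 and 99.8 CPM in the wild types and 88.7, 84.9 and 77.1 CPM in the knockouts. Every knockout was below every wild type, and this held in TPM as well, with 33.05 to 35.9 against 27.5 to 30.9. Mean Robo2 was 96.9 ± 2.70 and 83.6 ± 5.93 CPM (SD, n = 3 each). The fitted log2 fold change was -0.21 (SE 0.06, 95% interval -0.36 to -0.07, edgeR adjusted p = 0.272) and did not pass the test. Over the 14 alternative analyses the Robo2 value ran from -0.26 to -0.16 and was called in 0 of them. Robo1 (chromosome 16, 72308306 to 73046095, plus strand) had 88.6, 80.6 and 86.1 CPM in the wild types and 82.4, 77.8 and 70.3 CPM in the knockouts. The groups overlapped through knockout replicate 1, and the log2 fold change was -0.15 (95% interval -0.31 to 0.02, edgeR adjusted p = 0.522). Predicted genes of the opposite strand overlap these loci, Gm49670 that of Robo1 and Gm18021 that of Robo2, and the libraries are directional per the labels.

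Slit1 and Slit2, the ligands of these receptors, had overlapping values in the 2 genotypes. Slit2 (chromosome 5, 47983138 to 48307733, plus strand) had 54.7 to 64.5 CPM in wild type and 55.8 to 69.8 CPM in the knockout, a log2 fold change of 0.07 (95% interval -0.14 to 0.28). Slit1 (chromosome 19, 41600257 to 41743665, minus strand) had 33.3 to 41.6 and 30.4 to 41.0 CPM, a log2 fold change of -0.02 (95% interval -0.30 to 0.26). Their edgeR adjusted p was 0.852 and 0.976. The Slit1 interval includes -0.21, the value of Robo2, and the Slit2 interval does not.

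Nrp2, the receptor for Sema3f on apical axons, lies on chromosome 1 at 62703285 to 62818695 (plus strand). It had 220.4, 229.6 and 203 CPM in the wild types and 237, 238 and 219 CPM in the knockouts. Knockout replicates 1 and 2 were above all wild types, and replicate 3 lay among them. The means were 218 ± 13.6 and 232 ± 10.9 CPM (SD, n = 3 each), with a log2 fold change of 0.09 (95% interval -0.06 to 0.24, edgeR adjusted p = 0.711). In TPM the means were 45.2 ± 3.62 and 45.6 ± 2.67. Nrp1, the receptor for Sema3a, which endothelial cells also express (chromosome 8, 128358604 to 128503363, plus strand), had 34.4 to 40.3 CPM in wild type and 36.0 to 42.1 CPM in the knockout, a log2 fold change of 0.11 (95% interval -0.08 to 0.30, edgeR adjusted p = 0.717). The summed level of 8 endothelial markers, such as Pecam1 and Cdh5, was 92.1 to 112 TPM in wild type and 93.8 to 95.5 TPM in the knockout, with 0 of 8 called by edgeR and 0 at an unadjusted p under 0.05, and its part in the Nrp1 value was not tested.

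The semaphorins Sema3a and Sema3f are the ligands of the neuropilins. Sema3a (chromosome 5, 13125414 to 13602565, plus strand) had 52.0, 48.7 and 54.7 CPM in the wild types and 45.0, 46.6 and 46.1 CPM in the knockouts. All knockouts were below all wild types, in TPM as well (15.4 to 17.4 against 13.1 to 14.6), and the knockouts were close to each other. The log2 fold change was -0.17 (SE 0.05, 95% interval -0.30 to -0.05, edgeR adjusted p = 0.315). Sema3f (chromosome 9, 107681500 to 107710475, minus strand) had 54.35, 49.0 and 51.8 CPM in the wild types and 55.8, 54.38 and 58.2 CPM in the knockouts. Wild-type replicate 1 and knockout replicate 2 were nearly equal, and in TPM the groups overlapped (24.6 to 28.0 against 23.5 to 30.1). Its log2 fold change was 0.12 (95% interval -0.01 to 0.25, edgeR adjusted p = 0.513).

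**Figure D2:**
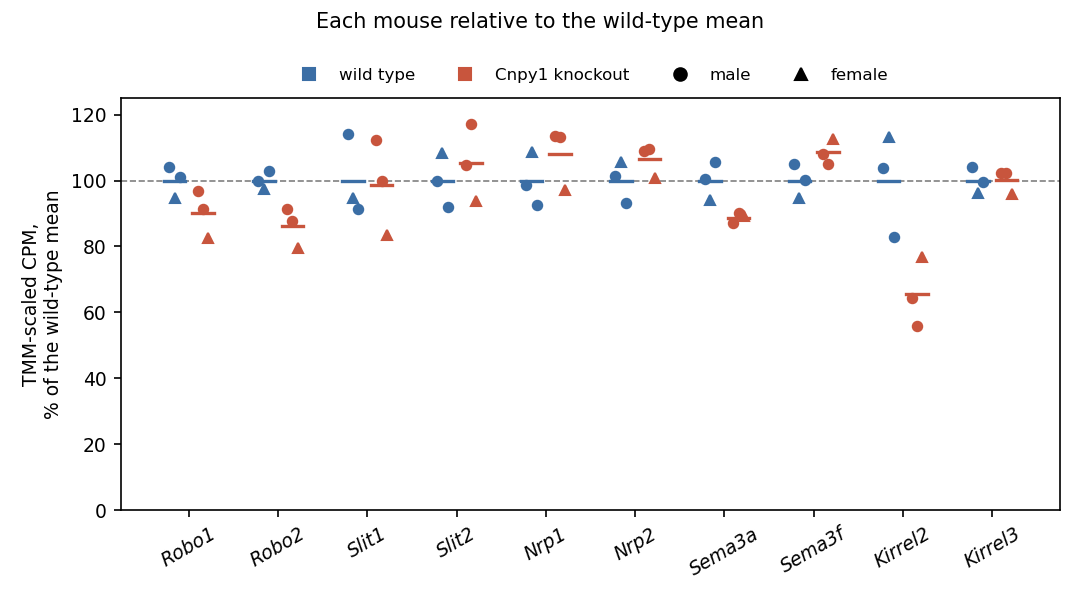
TMM-scaled CPM of each mouse as a percent of the gene's wild-type mean (dashed line at 100); colours and symbols mark genotype and sex, and bars are means. Kirrel2 knockouts lie at 55.8% to 76.8%, whereas Kirrel3 knockouts lie at 96.0% to 102% of the wild-type mean.

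Kirrel2 and Kirrel3 are expressed by partly separate sets of vomeronasal neurons. In main olfactory neurons Kirrel2 is known to be raised, and Kirrel3 lowered, by neuronal activity. Kirrel2 (chromosome 7, 30447534 to 30457690, minus strand) had 312, 341 and 249.7 CPM in the wild types and 194, 168 and 231 CPM in the knockouts. All knockouts were below all wild types, and the nearest pair, wild-type replicate 3 and knockout replicate 3, differed by less than any pair of mice of 1 genotype. Mean Kirrel2 was 301 ± 46.6 and 198 ± 31.7 CPM (SD, n = 3 each). The fitted log2 fold change was -0.61 (SE 0.14, 95% interval -0.93 to -0.29). The edgeR adjusted p was 0.143, and DESeq2's Wald test on the same counts gave a log2 fold change of -0.61 and an adjusted p of 0.000168. Over the 14 alternatives the Kirrel2 value ran from -0.73 to -0.50 and the adjusted p from 0.000168 to 0.451. In the 6 leave-one-out fits, the edgeR adjusted p was 0.0766 to 0.418, so that none called it.

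Kirrel3 (chromosome 9, 34485894 to 35036716, plus strand) had 91.5, 84.7 and 87.7 CPM in the wild types and 90.0, 89.9 and 84.4 CPM in the knockouts, and the groups overlapped. Its log2 fold change was 0.00 (SE 0.06, 95% interval -0.12 to 0.13, edgeR adjusted p = 0.995). The interval leaves out a decrease of the size fitted for Kirrel2. Set against each other within a library, Kirrel2 had 3.41, 4.02 and 2.85 reads per Kirrel3 read in the wild types and 2.15, 1.87 and 2.74 in the knockouts. In reads, this ratio was lower in every knockout, with replicate 3 of both genotypes close together. It was not among the planned ratios and depends on the unit. In TPM, Kirrel2 of knockout replicate 3 lay among the wild types, as described below.

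**Figure D3:**
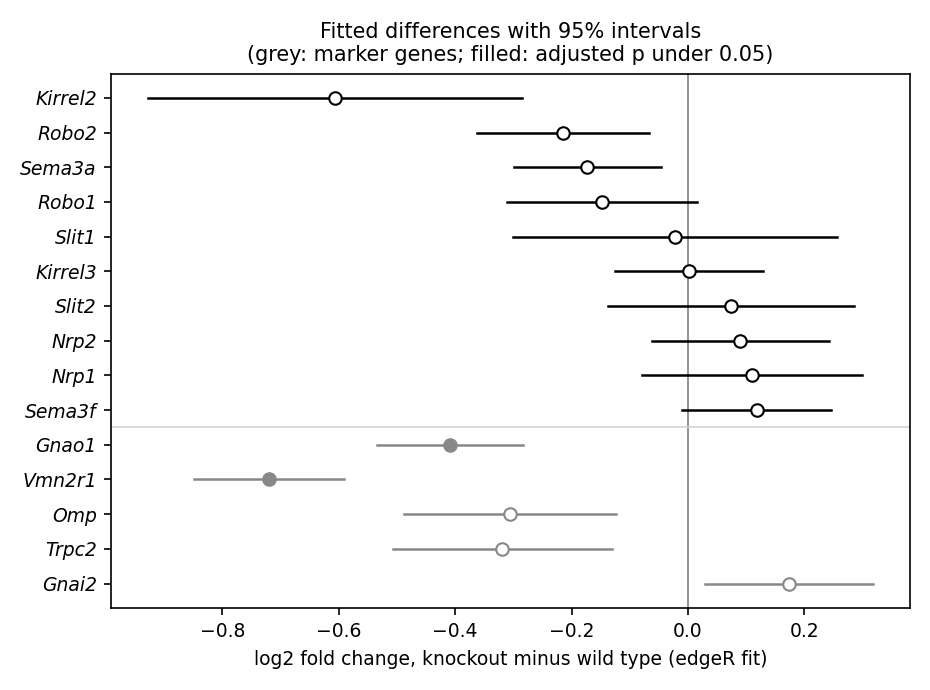
Fitted log2 fold changes (knockout minus wild type) with 95% intervals for the 10 genes (black) and 5 marker genes (grey); filled points have an edgeR adjusted p under 0.05. Kirrel2 has the lowest value of the 10 (-0.61), and Gnao1 and Vmn2r1 are the filled points.

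The Kirrel2 values depended on the unit through 1 short transcript. Summed over transcripts, Kirrel2 had 135, 157 and 153 TPM in the wild types and 89.1, 65.1 and 147 TPM in the knockouts, so that in TPM knockout replicate 3 lay among the wild types. Kirrel2-201, with 15 exons and 3352 bases, held 92.7% to 98.2% of the Kirrel2 reads in every library. Its own level was 116, 143 and 101 TPM in the wild types and 74.1, 58.7 and 92.2 TPM in the knockouts, without overlap. Kirrel2-205 has 4 exons and 575 bases, all inside exons of Kirrel2-201. It held 5.56% of the reads in wild-type replicate 3 and 6.46% in knockout replicate 3, and 0.964% to 2.12% in the other 4 libraries. Because TPM divides by length, these reads became 50.5 and 54.1 TPM in the first 2 and 5.33 to 17.6 TPM in the others. How reads were divided between the overlapping transcripts is an estimate, with no read positions. Nphs1, which encodes nephrin and begins on the opposite strand beyond the 5′ end of Kirrel2, had 0.586 ± 0.168 TPM in wild type and 1.01 ± 1.15 TPM in the knockout (SD, n = 3 each).

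**Figure D4:**
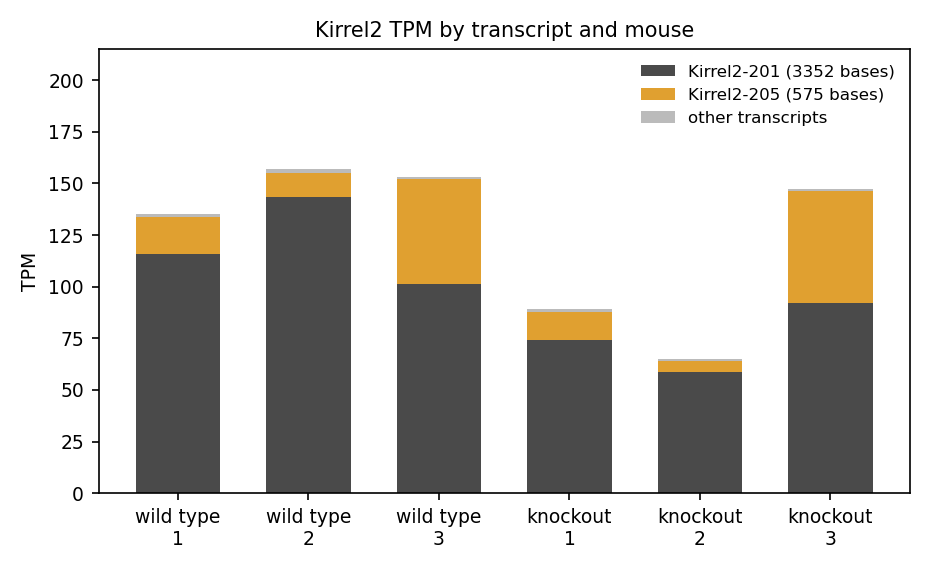
Kirrel2 TPM in each mouse, stacked by transcript from 0. Kirrel2-201 (dark) is lower in each knockout (58.7 to 92.2 TPM) than in each wild type (101 to 143 TPM), and Kirrel2-205 (orange) adds 50.5 and 54.1 TPM in replicate 3 of the 2 genotypes.

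Transcripts of the other genes were examined in the same way. Of 96 annotated transcripts of the 10 genes, 54 had enough reads to test, and 0 were called by edgeR, where 0.108% of all transcripts tested were called. An unadjusted p under 0.05 was found for 5 of the 54 and for 5.04% of all transcripts tested. Kirrel2-201 had the lowest adjusted p of the 54 (log2 fold change -0.62, edgeR adjusted p = 0.661). Robo2 was spread over several coding transcripts: Robo2-202, with 26 exons, held 49.5% ± 1.22 of its reads in wild type and 49.2% ± 1.66 in the knockout (SD, n = 3 each). Nrp2-205 held 48.4% ± 0.437 of the Nrp2 reads in wild type and 48.3% ± 0.927 in the knockout. Nrp1 came nearly whole from its 1 coding transcript, Nrp1-201, with 97.5% ± 0.320 and 97.2% ± 0.169. Kirrel3-208 held 57.4% ± 0.830 and 56.0% ± 1.66 of the Kirrel3 reads. These 4 shares differed between genotypes by no more than about the spread between mice. Of the 54 transcripts tested, 2 had shares whose ranges did not overlap, and 8.2% of all transcripts tested did. They were Sema3f-204, with 28.3% ± 0.874 of the Sema3f reads in wild type and 26.0% ± 0.849 in the knockout, and the minor transcript Robo2-212, with 0.502% ± 0.0563 and 0.855% ± 0.0682 of the Robo2 reads. Little sequence was in common with other genes: 98.0% to 100% of the 31-base words of each of the 10 genes occurred in no other gene quantified. Reads in common were not counted.

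Markers of basal neurons had lower values in the same knockouts. Gnao1, the G protein subunit of basal neurons, fell from 310.3 ± 8.48 to 234 ± 8.09 CPM (SD, n = 3 each; log2 fold change -0.41, edgeR adjusted p = 0.0143). The V2R co-receptor gene Vmn2r1 fell by 0.72 on the log2 scale (edgeR adjusted p = 0.000612). Over all genes tested, edgeR called 0.683% lower and 0.0779% higher in the knockout, and DESeq2's Wald test called 2.46%. At an unadjusted p under 0.05 by edgeR, 5.99% were lower and 4.55% higher. All knockouts lay below all wild types for 8.95% and above them for 7.22%. Of the 4 basal markers, 2 were called, both lower, and all 4 had an unadjusted p under 0.05 and every knockout below every wild type. The other 2 were Tfap2e at -0.26 (edgeR adjusted p = 0.230) and Calr4 at -0.14 (edgeR adjusted p = 0.468). The summed basal level was 453 to 553 TPM in wild type and 364 to 460 TPM in the knockout. The 3 apical markers had 0 called by edgeR (1 higher at an unadjusted p under 0.05), all knockouts above all wild types for 2 of the 3, and summed levels of 548 to 600 TPM and 529.8 to 678 TPM, and Gnai2 had a log2 fold change of 0.17 (edgeR adjusted p = 0.377). The 3 mature neuron markers had 0 called by edgeR (2 lower at an unadjusted p under 0.05), with Omp at -0.31 and Trpc2 at -0.32 (edgeR adjusted p = 0.203 and 0.197), all knockouts below all wild types for 2 of the 3, and summed levels of 864 to 1047 and 624 to 797 TPM. DESeq2's Wald test called both Omp and Trpc2 (adjusted p = 0.00635 and 0.00898), and over the 14 alternatives the adjusted p ran to 0.499 and 0.524. The 6 immature neuron markers had 0 called by edgeR and values all above 0 (median 0.23, 1 higher at an unadjusted p under 0.05), with summed levels of 173 to 240.1 TPM in wild type and 169 to 237 TPM in the knockout. The 5 immune markers had 0 called by edgeR and values all above 0 (median 0.12, 2 higher at an unadjusted p under 0.05), with summed levels of 139 to 168 and 138 to 182 TPM. Gnao1 was not called in 5 of 6 leave-one-out fits, where its edgeR adjusted p was 0.0394 to 0.0854, with the call kept without knockout replicate 3. The part of these markers in the values of the 10 genes was not tested.

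Robo2, Kirrel3, Nrp2 and Kirrel2 were also set against a class marker in the same library, as a ratio of TPM. Pairing Kirrel3 with the basal marker Gnao1 and Kirrel2 with the apical marker Gnai2 was a choice of the design. The class of the neurons that express them was not tested here. Robo2 per Gnao1 was 0.243, 0.2425 and 0.224 in the wild types and 0.288, 0.301 and 0.244 in the knockouts. The knockouts were all higher, though wild-type replicate 1 and knockout replicate 3 were nearly equal (log2 difference 0.23, two-sided exact permutation p = 0.1). Kirrel3 per Gnao1 was 0.304, 0.284 and 0.278 in the wild types and 0.384, 0.407 and 0.360 in the knockouts, which did not overlap (log2 difference 0.41, two-sided exact permutation p = 0.1). The fitted log2 fold changes were -0.41 for Gnao1, 0.00 for Kirrel3 and -0.21 for Robo2. Both differences per Gnao1 therefore largely restate the lower Gnao1 and are not separate results. These differences depended on the marker: Robo2 was at 0.073 per Tfap2e, -0.048 per Calr4 and 0.53 per Vmn2r1 (two-sided exact permutation p = 0.5, 0.8 and 0.1). Kirrel3 was at 0.25, 0.13 and 0.71 per the same markers (two-sided exact permutation p = 0.1, 0.2 and 0.1). Nrp2 per Gnai2 was 0.0999, 0.113 and 0.101 against 0.0980, 0.105 and 0.0924, with overlap (log2 difference -0.09, two-sided exact permutation p = 0.4), and it was at 0.15 per Pde4a and -0.13 per Meis2, the other apical markers. Kirrel2 per Gnai2 was 0.320, 0.361 and 0.352 against 0.186, 0.161 and 0.288, without overlap (log2 difference -0.74, two-sided exact permutation p = 0.1), and it was at -0.51 per Pde4a and -0.79 per Meis2. With 3 against 3 mice 0.1 is the smallest p possible, and adjusted over the 4 ratios the values were 0.133, 0.133, 0.4 and 0.133.

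The wider guidance families gave the setting. Of 110 other listed guidance genes, 106 were tested and 0 were called by edgeR, with 10 lower and 3 higher at an unadjusted p under 0.05 (5.99% and 4.55% of all genes tested), and DESeq2's Wald test called 1 of them (Efnb3), where it called 2.46% of all genes. All knockouts were below all wild types for 15 of the 106 and above them for 5, where the shares of all genes tested were 8.95% and 7.22%. Robo3, Epha6, Epha8 and Epha10 had too few reads to test. The median log2 fold change over the 106 was 0.03 (-0.01 without scaling factors), with 48 genes below 0 and 58 above. Without scaling factors the median of all genes tested was -0.03, and list medians this close to 0 have no fixed sign. Plexins, which carry the semaphorin signal with neuropilins, had a median of 0.10 over 9 genes. Their most abundant members were Plxnb2, at 127 ± 2.25 TPM in wild type and 133 ± 13.0 TPM in the knockout, and Plxna1, at 50.1 ± 1.70 and 44.3 ± 5.21 TPM (SD, n = 3 each). The other class 3 semaphorins had a median of 0.03 over 5 genes, with Sema3b (15.7 ± 2.08 and 16.4 ± 1.52 TPM) and Sema3d (8.38 ± 1.47 and 7.81 ± 0.844 TPM) the most abundant. The membrane semaphorins had a median of 0.08 over 13 genes, led by Sema4d (30.3 ± 1.55 and 26.4 ± 2.50 TPM) and Sema4c (21.6 ± 0.588 and 22.1 ± 2.95 TPM). Slit and Robo partners had a median of 0.04 over 12 genes, led by the actin regulator Vasp (68.0 ± 4.87 and 63.3 ± 5.997 TPM) and the Slit-binding dystroglycan gene Dag1 (56.5 ± 1.46 and 56.6 ± 4.44 TPM).

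Semaphorin signalling proteins had a median of -0.03 over 16 genes, led by the collapsin response mediator gene Dpysl3 (136 ± 10.1 TPM in wild type and 121 ± 17.2 TPM in the knockout) and the actin-oxidising Mical2 (39.2 ± 6.13 and 36.9 ± 2.93 TPM). The Kirrel family and slit diaphragm partners had a median of -0.06 over 6 genes, led by the scaffold genes Cask (28.2 ± 1.83 and 24.2 ± 2.36 TPM) and Tjp1 (24.4 ± 1.71 and 24.3 ± 1.25 TPM). Ephrins and Eph receptors had a median of 0.07 over 19 genes, led by the ligand genes Efna3 (102 ± 10.6 and 86.4 ± 6.93 TPM) and Efna5 (30.8 ± 1.68 and 29.2 ± 2.85 TPM). Netrins and their receptors had a median of 0.00 over 15 genes, led by the receptor gene Unc5b (28.1 ± 0.345 and 22.9 ± 2.41 TPM) and Rgmb (28.1 ± 0.416 and 28.3 ± 3.58 TPM). Adhesion genes of olfactory axon sorting had a median of -0.08 over 11 genes, led by Cntn4, a contactin (193 ± 7.52 and 156 ± 9.74 TPM), and Ncam1 (73.6 ± 3.58 and 66.2 ± 6.90 TPM). The fitted Cntn4 difference was -0.21 on the log2 scale (edgeR adjusted p = 0.315), and it was 1 of the 15 genes with every knockout below every wild type.

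**Figure D5:**
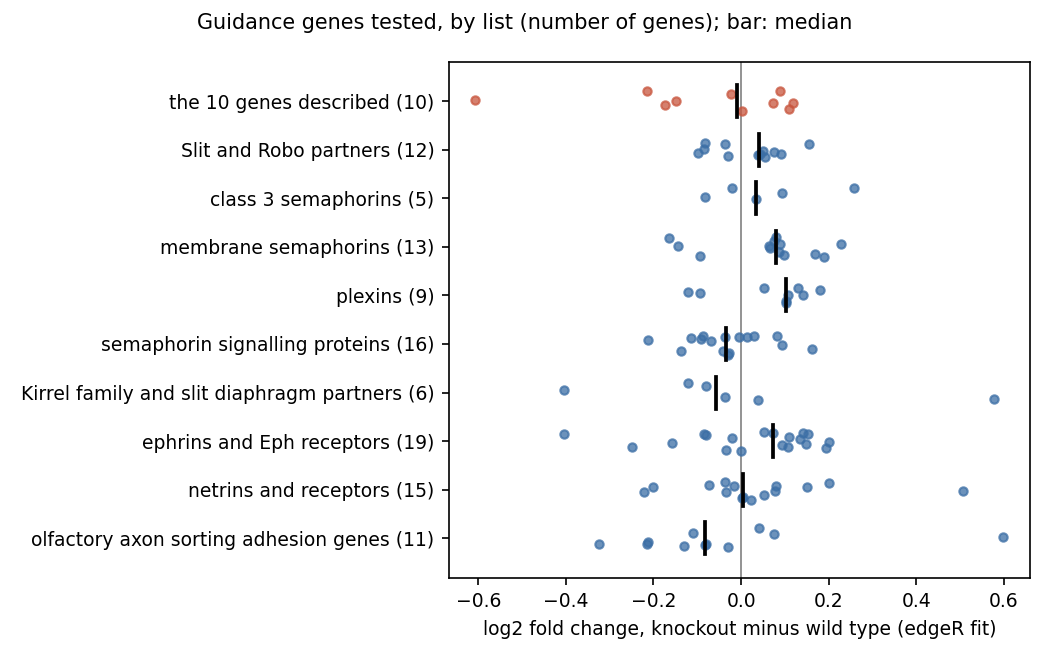
Log2 fold changes (knockout minus wild type, edgeR fit) of the 10 genes (red) and of 106 other guidance genes (blue) by list, with the number of genes tested in brackets and the median as a bar. Medians lie between -0.08 and 0.10, and the lowest value among all of them is that of Kirrel2 (-0.61).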

How the data were processed

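Vomeronasal organ RNA of 6 mice was analysed, 1 directional poly(A) library each. The authors deposited expected counts (estimated reads) and TPM for 117081 transcripts, per the file headers, and the submitters' processing notes name Trim Galore 0.6.6, Salmon 1.9.0 and GRCm38. Deposited transcript lengths and effective lengths are in bases. Transcripts were joined to GENCODE M21 genes (GRCm38) by identifier. The 1139 without a match held 0.304% of reads and were left out. Counts were summed to 35450 genes and rounded. The design had been fixed for counts per gene.

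edgeR 4.0.16 (R 4.3.3) was run with TMM scaling, filterByExpr and genotype as the only term, with Benjamini-Hochberg adjustment over all genes tested (threshold 0.05, common biological coefficient of variation 12.8%). SE is the fold change over the square root of F. DESeq2 1.42.0 and other settings were alternatives. Each mouse counted as 1 replicate. Named genes are the 10, called genes of the other lists, the 2 of highest TPM in each list, and cell type markers; Efnb3, Nphs1, Sema3c and Epha5 were added after their values were seen. The genes and lists were chosen with earlier results of these data known.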

Additional observations from a re-analysis of the deposited data

How the results depend on the processing

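Kirrel2, Robo2, Sema3a, Robo1, Nrp1, Nrp2 and Sema3f kept their direction under the 14 alternatives, and of the 10 genes Kirrel2 alone was called by any of them, DESeq2's Wald test. That test called 411 genes in all, 1 of the 10, 1 other guidance gene and the mature neuron markers Omp and Trpc2. Males only called 76 genes, and the 6 fits without 1 library called 69 to 96, with fewer samples. Values near 0 changed sign. Kirrel3 was -0.029 without scaling factors, -0.0052 with an effective-length offset and -0.024 to 0.033 without 1 library. Slit2 was -0.028 with the offset, 0.21 in males only and -0.011 to 0.15 without 1 library. Slit1 was 0.047 in males only and -0.13 to 0.085 without 1 library. Without 1 library, Nrp1 was 0.058 to 0.18, Nrp2 0.041 to 0.13, Sema3f 0.081 to 0.16 and Robo1 -0.20 to -0.088. In males only Nrp1 was 0.24, Nrp2 0.17 and Sema3f 0.054. With other markers of the class, chosen after seeing the data, Robo2 per Gnao1 became -0.048 (Calr4) and Nrp2 per Gnai2 became 0.15 (Pde4a). Nrp2 per Gnai2 was 0.014 in males only, and the Kirrel3 and Kirrel2 ratios kept their direction throughout. The cause of these changes was not tested. Same-numbered mice of the 2 genotypes did not deviate together in every pair (correlations 0.246, -0.112 and 0.317), so the numbers were not taken as pairs. With the replicate block, 154 genes and 0 of the 10 were called, and no other call changed among the 10. For the sex by genotype interaction 4 genes were called, 22 with low counts kept and 7 without scaling factors, and 0 of the 10 in each. Gnao1 was not called without scaling factors (-0.44) or in males only (-0.43), and was -0.43 to -0.38 without 1 library. Each of the 10 genes had at least 2043 reads in every library. Reads of single transcripts are divided by estimation.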

Other observations

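The genotype difference was compared between the sexes with 1 female per genotype, so that sex and animal cannot be told apart. For Nrp1 the interaction was -0.40 on the log2 scale (SE 0.12, edgeR adjusted p = 0.958) and for Slit2 -0.42 (SE 0.15, edgeR adjusted p = 0.958). Both had an unadjusted p under 0.05 (0.0125 and 0.0240), and the other 8 did not. Male knockouts had 42.1 and 42.0 CPM of Nrp1 and male wild types 36.6 and 34.4, whereas the female knockout had 36.0 and the female wild type 40.3.

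The genes whose log2 CPM followed Robo2 most closely over the 6 libraries (mean CPM at least 1) were Gm3623, 9330182L06Rik, Cdh23, Cux2 and Gpr158, with Pearson's r of 0.986 to 0.990. Those nearest to Nrp2 were Fzd7, Pros1, Cyfip1, Nfkb1 and Timm29, with r of 0.987 to 0.998. These correlations describe 6 points that share genotype, library and scaling, chosen from those of the 16679 genes tested that passed this CPM limit.

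The ratio of Robo2 to Nrp2, the receptors named for basal and apical axons, was 0.783, 0.723 and 0.813 in TPM in the wild types and 0.659, 0.646 and 0.606 in the knockouts. It was lower in each knockout, and was chosen after the values were seen. Mean Sema3c was 15.99 ± 0.487 CPM in wild types and 19.1 ± 1.33 CPM in knockouts (SD, n = 3 each), and it had the lowest unadjusted p of the guidance genes with higher values in the knockout (log2 fold change 0.26, edgeR adjusted p = 0.234). On the lower side, Efnb3 (-0.40, edgeR adjusted p = 0.204) and Epha5 (-0.25, edgeR adjusted p = 0.205) had the lowest among the other listed genes. Sema3c, Efnb3 and Epha5 were picked here with their values in view.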
